A study of Mus musculus with 4 samples.

Results

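This account covers the mouse genes of 3 groups of signalling brakes, the dual-specificity phosphatases (Dusp), the regulators of G protein signalling (Rgs) and the Sprouty and SPRED proteins (Spry, Spred). Members were taken by gene symbol, as every measured gene whose symbol begins with Dusp, Rgs, Spry or Spred followed by a digit. That gave 54 of 19504 genes, 24 Dusp, 23 Rgs, 4 Spry and 3 Spred, each measured by a single row of the table. Expression was measured by Affymetrix array in group 3 innate lymphoid cells (ILC3s), sorted by flow cytometry as lineage-negative, CD90-high and CD45-low cells. The 4 samples, 1 array each, came from circZbtb20+/+, circZbtb20-/-, Nr4a1+/+ and Nr4a1-/- mice. They are called here the circZbtb20 wild type, the circZbtb20 knockout, the Nr4a1 wild type and the Nr4a1 knockout. circZbtb20 is a circular RNA formed from the Zbtb20 gene, and Nr4a1 is an orphan nuclear receptor of the early response to stimulation. The sources used here do not give the tissue, age, strain background, number of animals behind each array or the design of either deletion. A single array stands for each genotype, so replicate error cannot be measured and this number of arrays sets the limit of precision for every value below.

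These families switch signals off. MAP kinases are activated by phosphate on a threonine and a tyrosine, and the MAP kinase phosphatases among the DUSPs remove both. RGS proteins speed the hydrolysis of GTP on the alpha subunits of heterotrimeric G proteins and so shorten signals from chemokine and lipid receptors, while Sprouty and SPRED proteins restrain the path from receptor tyrosine kinases through Ras and RAF to the kinase ERK. Many are themselves induced by the signal they restrain and form negative feedback, and in lymphocytes genes such as Dusp1, Dusp5, Rgs1 and Rgs2 are known as early-response genes. The symbol rule also caught genes outside this role. Dusp11 encodes a phosphatase that acts on RNA, and Rgs7bp and Rgs9bp encode proteins that bind RGS proteins.

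Promoter sequence was read from RefSeq for build GRCm38.p6, where 39 of the 54 genes had at least 1 window of 300 bases, from 250 before to 50 after the annotated start, 48 windows in all. The search, on both strands, used 6 motifs. These were AAAGGTCA, the element bound by NR4A receptors as monomers, TGACGTCA, the cAMP response element, its core TGACGT, which is contained in it, TGANTCA for AP-1, CCGGAAGT for ETS factors, and the CArG box of serum response factor. The core TGACGT lay in 5 of 48 windows, those of Dusp1, Dusp5, Dusp8, Rgs2 and Spred2, a share of 10.4% beside 7.51% of all 32851 windows. The full TGACGTCA lay in 2 of them, Dusp1 and Dusp8, or 4.17% beside 1.79%. The CArG box lay in 1 window, that of Dusp5, as a pair of adjacent matches, 2.08% beside 1.63% of all windows. AP-1 matches lay in 3 windows, those of Dusp13, Rgs12 and Rgs17, 6.25% beside 7.81%. Neither AAAGGTCA, found in 1.51% of all windows, nor CCGGAAGT, found in 3.89%, lay in any of the 48. The 15 members without a window, Rgs1, Dusp4 and Spry4 among them, were not searched. A match describes these letters and shows no binding, and a missing match speaks for this window alone.

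The 200 bases before the annotated start are shown for the 5 genes with the TGACGT core, and for Spry2, which held none of the 6 motifs in its window and had a difference below that of every member but Rgs1 in the Nr4a1 comparison. They run 5′ to 3′ on the strand of the gene, with motif matches in capitals (ACGTCA is the core read on the opposite strand), and lie on GRCm38.p6, with Dusp1 at chr17:26508473-26508672 on the minus strand, Dusp5 at chr19:53528945-53529144 on the plus strand, Dusp8 at chr7:142095285-142095484 on the minus strand, Rgs2 at chr1:144004150-144004349 on the minus strand, Spred2 at chr11:19924242-19924441 on the plus strand and Spry2 at chr14:105896820-105897019 on the minus strand.
Dusp1: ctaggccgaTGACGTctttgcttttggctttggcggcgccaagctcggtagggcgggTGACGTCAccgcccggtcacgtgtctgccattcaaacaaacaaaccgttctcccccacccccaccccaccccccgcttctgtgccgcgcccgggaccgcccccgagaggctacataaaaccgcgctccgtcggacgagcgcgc
Dusp5: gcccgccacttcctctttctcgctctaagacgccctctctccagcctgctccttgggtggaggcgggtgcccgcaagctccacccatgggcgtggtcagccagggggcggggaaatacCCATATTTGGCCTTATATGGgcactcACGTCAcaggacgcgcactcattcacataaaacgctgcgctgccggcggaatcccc
Dusp8: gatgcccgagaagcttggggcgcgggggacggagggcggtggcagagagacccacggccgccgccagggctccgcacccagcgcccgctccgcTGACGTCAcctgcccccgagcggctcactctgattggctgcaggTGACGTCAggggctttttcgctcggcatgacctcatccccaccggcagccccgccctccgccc
Rgs2: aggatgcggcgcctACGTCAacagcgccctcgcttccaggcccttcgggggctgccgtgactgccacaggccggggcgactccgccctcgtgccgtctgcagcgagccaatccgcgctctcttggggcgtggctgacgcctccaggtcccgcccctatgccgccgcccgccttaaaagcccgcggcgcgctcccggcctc
Spred2: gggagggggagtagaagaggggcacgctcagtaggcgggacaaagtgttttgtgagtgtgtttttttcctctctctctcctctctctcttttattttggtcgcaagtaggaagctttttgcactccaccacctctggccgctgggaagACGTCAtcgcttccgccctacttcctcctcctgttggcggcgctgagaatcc
Spry2: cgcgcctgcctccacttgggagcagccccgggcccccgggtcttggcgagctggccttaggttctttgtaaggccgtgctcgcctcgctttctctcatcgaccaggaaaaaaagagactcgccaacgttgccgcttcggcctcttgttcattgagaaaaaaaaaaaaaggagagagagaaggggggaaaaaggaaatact

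In Dusp1 the full element lies at bases -143 to -136 from the start and a further TGACGT core at -191 to -186. In Dusp5 the CArG boxes lie at -82 to -73 and -72 to -63, followed by the core at -56 to -51. Dusp8 has full elements at -107 to -100 and -63 to -56, Rgs2 has a core at -186 to -181, and Spred2 has a core at -52 to -47. Of these genes Dusp1, Dusp5, Dusp8 and Rgs2 were lower in the Nr4a1 knockout than in its wild type and Spred2 was higher, by the values given below. By the 2-fold rule defined below, 14 of all 54 members were lower there and 8 higher, beside 11.9% and 18.3% of all genes. The genes with AP-1 matches, Dusp13, Rgs12 and Rgs17, differed there by 0.15, -0.25 and -0.16, under the 2-fold size. Whether these motifs go with such differences was not tested.

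Levels below are deposited log2 expression values, given in the order circZbtb20 wild type, circZbtb20 knockout, Nr4a1 wild type and Nr4a1 knockout where 4 values follow each other. The array medians were 4.48, 4.38, 4.51 and 4.34, and the highest value in the table, 19.93, is a ceiling that no member reached. Values of different genes come from different probes and are not compared with each other. The targeted gene Nr4a1 was at 19.93, 15.98, 18.11 and 11.63, so it was lowest on the array labelled as its knockout. Because the deleted stretch of Nr4a1 and the position of the probes are not known here, that signal is no check of the label. Gene symbols do not tell a circular RNA from its host gene, so no value is given for circZbtb20.

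Marker genes of the sorted cells differed between the arrays. The summed log2 level of 11 measured ILC3 markers was 146.2, 166.6, 148.4 and 86.1, and 8 of the 11 were lower in the Nr4a1 knockout. There Kit was at 5.48 and Il23r at 4.73, Ncr1 was under the array median, and Il22 was at the ceiling. Tox, also on that list, went the other way, at 16.42 against 12.04 in the Nr4a1 wild type. All 13 measured markers of T cells and thymocytes were higher in that array than in its wild type, with a summed log2 level of 70.9, 76.2, 78.1 and 199.2. Among them Dntt, an enzyme of antigen receptor rearrangement, was at 2.58, 2.82, 2.40 and 14.64. The pancreatic acinar list of 9 genes had sums of 99.8, 42.2, 76.2 and 37.8, higher in both wild types, the NK cell and ILC1 list of 7 genes 71.0, 51.1, 68.8 and 48.9, and the ILC2 list of 4 genes 40.1, 17.8, 43.2 and 22.9. The 9 macrophage and dendritic cell markers summed to 62.3, 51.6, 70.6 and 48.2, and the 6 B cell markers to 26.7, 25.8, 27.5 and 22.8. In such sorted bulk samples a change in the share of a cell type and a change in RNA per cell cannot be told apart. The part of these shifts in the differences described below was not tested, and every difference of the Nr4a1 knockout stands beside the T cell sum of 199.2.

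**Figure D1:**
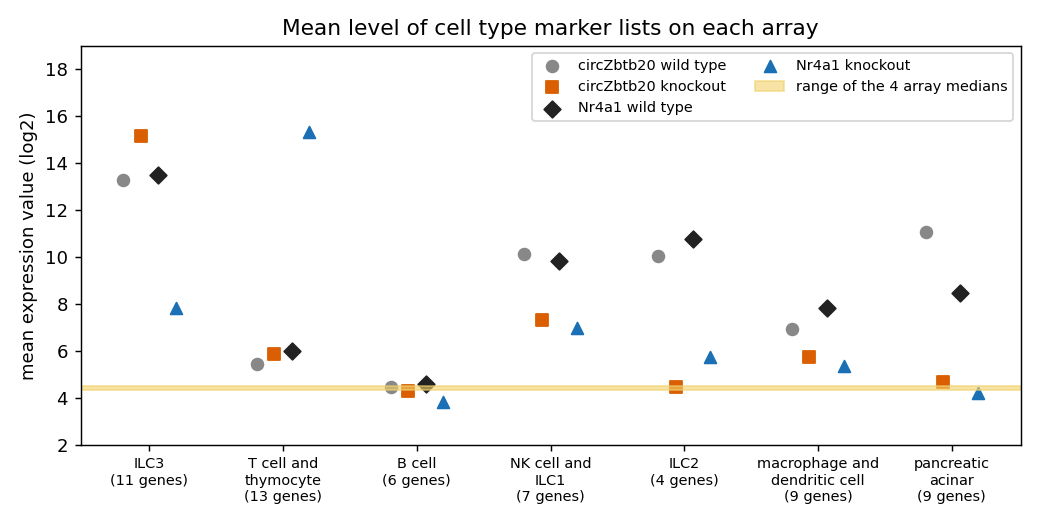
Mean log2 expression value (vertical axis) of 7 lists of cell type markers on each of the 4 arrays, 1 point per array. The yellow band spans the array medians, 4.34 to 4.51. T cell and thymocyte markers stand at 15.32 in the Nr4a1 knockout and between 5.45 and 6.01 on the other arrays, and ILC3 markers at 7.82 there against 13.29 to 15.15.

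More members were called in the Nr4a1 knockout than in the circZbtb20 knockout, most of them lower there, Rgs1, Spry2, Rgs2, Dusp5 and Dusp1 by the greatest differences. The circZbtb20 knockout instead had Dusp12, Rgs9, Dusp19 and Dusp11 as its greatest higher values and Rgs10 and Spred1 as its lowest. A gene is called higher or lower here when it differed by at least 1 on the log2 scale, a 2-fold size, and its larger value was no lower than the median of the array that holds it. By that rule 14 of the 54 members were lower in the Nr4a1 knockout than in its wild type, or 25.9%, beside 11.9% of all 19504 genes, and 8 were higher, or 14.8%, beside 18.3%. For the circZbtb20 knockout the calls were 9 higher and 5 lower, where the rule called 15.6% of all genes higher and 11.1% lower. In either direction 22 members were called in the Nr4a1 comparison beside a background of 30.3%, and 14 in the circZbtb20 comparison beside 26.6%, a share of 25.9% that lies near the background. The median difference of the members was -0.10 in the Nr4a1 comparison and -0.04 in the circZbtb20 comparison, against 0.00 and 0.04 for all genes. Centring each array on its median, which moved the median of all genes by 0.17 and 0.10, turned the members' medians to 0.07 and 0.06.

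**Figure D2:**
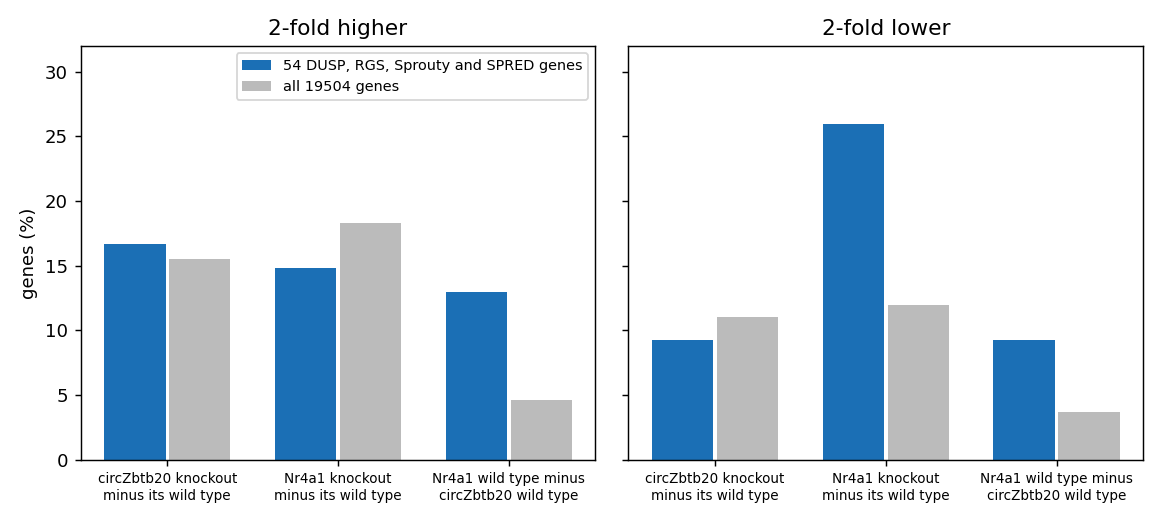
Share of genes (vertical axis, %) called 2-fold higher (left) or lower (right) in each of 3 comparisons, for the 54 members and for all 19504 genes. In the Nr4a1 comparison 14 of 54 members are lower, beside 11.9% of all genes. Between the wild types 7 members are higher and 5 lower, beside 4.65% and 3.71%.

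The wild types also differed at some of these genes. Of the 54 members 12 were called between the Nr4a1 wild type and the circZbtb20 wild type, or 22.2%, beside 8.36% of all genes. Of these 7 were higher in the Nr4a1 wild type, where the background was 4.65%, and 5 were lower, where it was 3.71%. After quantile normalization the split was 6 higher and 8 lower, beside 889 and 921 of all 19504 genes. The largest difference was that of Spry1, at 1.64. Rgs10 was higher by 1.62, Dusp4 by 1.41, Rgs2 by 1.34, Dusp3 by 1.25, Rgs3 by 1.09 and Dusp10 by 1.03, while Rgs5 differed by -1.42, Rgs16 by -1.38, Rgs8 by -1.20, Rgs7bp by -1.12 and Dusp22 by -1.06. No member differed by 2 or more on the log2 scale between the wild types. The median size of the members' difference, without its sign, was 0.48 between the wild types, 0.45 in the circZbtb20 comparison and 0.48 in the Nr4a1 comparison, against 0.32, 0.52 and 0.54 over all genes.

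**Figure D3:**
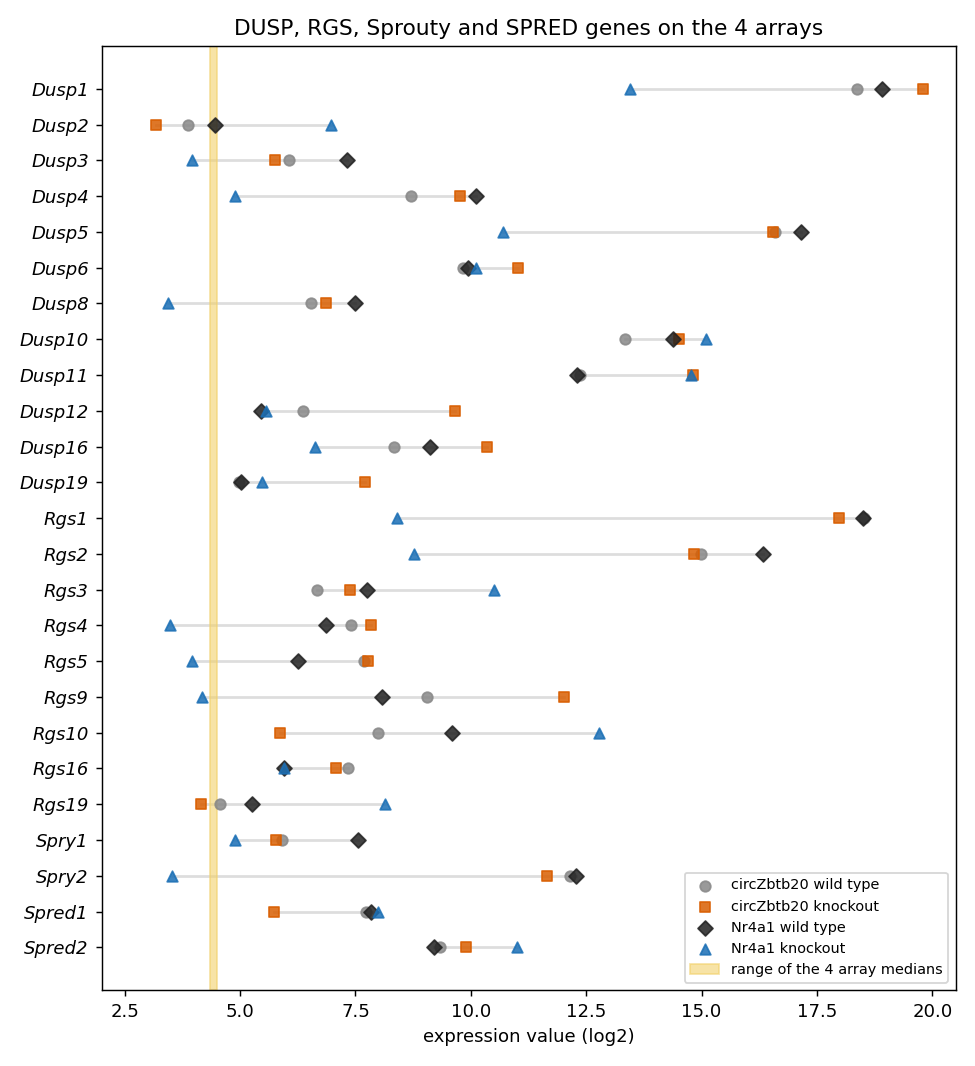
Deposited log2 expression values (horizontal axis) of the 25 members whose highest value reached the 75th percentile of its array, by family, with 1 point for each of the 4 arrays. Grey lines join the lowest and highest value of a gene, and the yellow band spans the array medians. Rgs1, Spry2, Rgs2 and Dusp5 have the Nr4a1 knockout far to the left of the other 3 arrays, and Rgs10, Rgs3 and Rgs19 have it to the right.

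The 4 nuclear, signal-induced MAP kinase phosphatases, a small group, were all called in the Nr4a1 comparison. There 3 were lower and 1 higher, beside 11.9% and 18.3% of all genes. Dusp1, which acts on p38, JNK and ERK and is known to limit cytokine output, was at 18.36, 19.79, 18.91 and 13.44. It was thus at least 2-fold lower in the Nr4a1 knockout than on every other array, with a difference of -5.47 against its wild type and -4.92 against the other wild type. Dusp5, a phosphatase of ERK in the nucleus, was at 16.59, 16.54, 17.16 and 10.69, a difference of -6.47 in the Nr4a1 comparison and of -0.05 in the circZbtb20 comparison. Dusp4, which acts on ERK and JNK, was at 8.70, 9.76, 10.11 and 4.90. Its difference of -5.21 in the Nr4a1 knockout was -3.80 against the other wild type. Dusp2 went the other way, at 3.88, 3.18, 4.45 and 6.98, under the array median on all but the Nr4a1 knockout, where it was higher by 2.53. In the circZbtb20 knockout Dusp1 was higher by 1.43 and Dusp4 by 1.06, but against the other wild type these differences were 0.88 and -0.35, so neither call held there and Dusp4 differed in the opposite direction.

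Of the cytoplasmic phosphatases that act on ERK, Dusp6 was at 9.83, 11.03, 9.93 and 10.11. It was called higher in the circZbtb20 knockout at a difference of 1.20, which was 1.10 against the other wild type but 0.63, under the 2-fold size, after quantile normalization. In the Nr4a1 knockout the difference was 0.18, and -0.20 after quantile normalization. Dusp6 in the Nr4a1 knockout thus lay within 0.28 of both wild types, on the array where Dusp1, Dusp4 and Dusp5 were lower by 5.21 to 6.47 in size. Dusp7, between 3.32 and 5.09, was higher by 1.45 in the Nr4a1 knockout, and Dusp9 lay between 3.15 and 3.41, under the median on all arrays.

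The phosphatases of JNK and p38 differed among themselves. Dusp10 was at 13.34, 14.51, 14.37 and 15.10. It was called higher in the circZbtb20 comparison, at 1.17, but stood only 0.14 above the Nr4a1 wild type, itself 1.03 above the circZbtb20 wild type. In the Nr4a1 knockout it was not called against its own wild type, at 0.73, but was called higher against the other, at 1.76. Dusp16 was at 8.33, 10.34, 9.12 and 6.62, highest in the circZbtb20 knockout and lowest in the Nr4a1 knockout, with differences of 2.01 and -2.50, the first of them 1.22 against the other wild type. Dusp8 was at 6.53, 6.86, 7.49 and 3.45, lower by -4.04 in the Nr4a1 knockout, where it was under the array median.

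The atypical DUSPs are small phosphatases without the kinase-binding domain of the others, and 3 of 14 were higher in the circZbtb20 knockout and none lower. Dusp12 was at 6.36, 9.66, 5.46 and 5.57, a difference of 3.30, or 4.20 against the other wild type. Dusp19 was at 4.98, 7.71, 5.03 and 5.47, higher by 2.73 in the circZbtb20 knockout, while the other 3 arrays lay within 0.49 of each other. Dusp11, the RNA phosphatase, was at 12.37, 14.82, 12.31 and 14.77. It was higher by 2.45 in the circZbtb20 knockout and by 2.46 in the Nr4a1 knockout, with a difference of -0.06 between the wild types. Dusp3, which acts on ERK and JNK, was at 6.07, 5.76, 7.32 and 3.95, lower by -3.37 in the Nr4a1 knockout and by -2.12 against the other wild type. Over all 24 Dusp genes the circZbtb20 comparison gave 8 higher calls and 0 lower calls, beside 15.6% and 11.1% of all genes. Against the other wild type that count was 5 higher and 1 lower, the latter Dusp3 at -1.56. There 2949 of all 19504 genes were higher and 2338 lower, and in either direction the shares were 25.0% and 27.1%. After quantile normalization Dusp4 and Dusp10, at 0.56 and 0.96, were under the 2-fold size. In the Nr4a1 knockout 4 Dusp genes were higher and 6 lower, beside 18.3% and 11.9%.

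The R4 family of RGS proteins, small proteins that consist of little more than the RGS domain, held the greatest difference of the set, that of Rgs1. Rgs1, which desensitises chemokine receptors in lymphocytes, was at 18.52, 17.97, 18.50 and 8.40. The first 3 arrays lay within 0.55 of each other, and the Nr4a1 knockout was lower by -10.10 than its wild type. That difference ranked 36 from the lowest among all 19504 genes. Rgs2, which acts on Gq signalling, was at 14.99, 14.84, 16.33 and 8.78, lower by -7.55 and ranked 112. Rgs4 was at 7.40, 7.83, 6.86 and 3.49 and Rgs5 at 7.68, 7.77, 6.26 and 3.96, with differences of -3.37 and -2.30, the latter -3.72 against the other wild type, and both were under the array median in the Nr4a1 knockout. Rgs3 opposed them, at 6.66, 7.39, 7.75 and 10.51, higher by 2.76. Rgs16 was at 7.33, 7.08, 5.95 and 5.96 and differed by no more than 0.25 in size within each pair, although the wild types differed by -1.38. In the circZbtb20 knockout the differences of Rgs1, Rgs2, Rgs4 and Rgs5 were -0.55, -0.15, 0.43 and 0.09, none called. Against the other wild type Rgs2 was called lower there, at -1.49, and Rgs5 and Rgs16 higher, at 1.51 and 1.13.

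Rgs2, Rgs13, Rgs1, Rgs21 and Rgs18 are consecutive protein-coding genes on mouse chromosome 1 in the RefSeq gene order. Only Rgs2 and Rgs1 of the 5 were called in the Nr4a1 comparison. Rgs13 lay between 4.16 and 4.86, Rgs18 between 4.21 and 4.70 and Rgs21 between 2.61 and 3.09, and none of these was called in the circZbtb20 comparison either. Values so near or under the array medians left these genes little room to be called lower. Rgs5 and Rgs4, also neighbours on that chromosome, were both lower in the Nr4a1 knockout. Rgs8 and Rgs16 are neighbours there as well, and neither was called in the Nr4a1 comparison against its own wild type. Against the other wild type both were called lower, at -1.28 and -1.37.

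**Figure D4:**
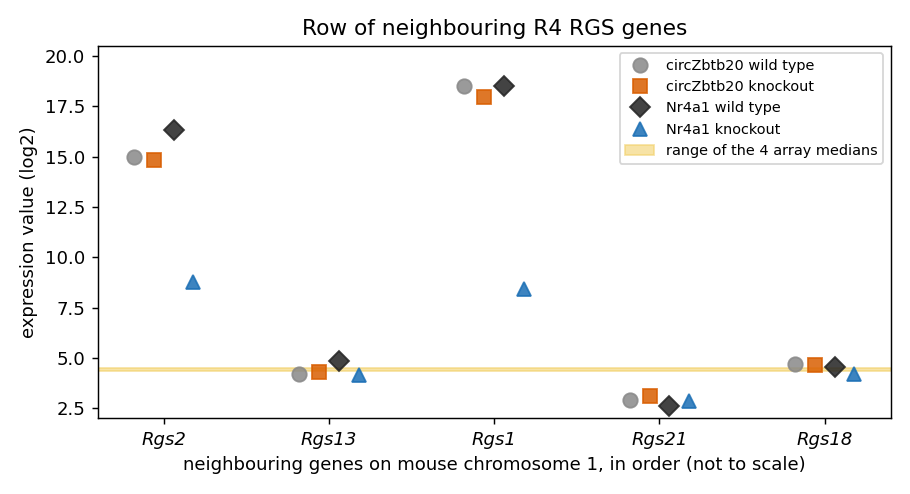
Log2 expression values (vertical axis) of 5 neighbouring Rgs genes on mouse chromosome 1, in gene order and not to scale, with 1 point per array, set apart sideways to be seen, and the band of array medians in yellow. For Rgs2 and Rgs1 the Nr4a1 knockout, at 8.78 and 8.40, lies far below the other arrays of the same gene. For Rgs13, Rgs21 and Rgs18 all 4 arrays lie close together near or under the medians.

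The remaining RGS genes included members that differed in opposite directions in the knockouts. Rgs9, of the R7 family, was at 9.06, 12.02, 8.08 and 4.17. It was higher by 2.96 in the circZbtb20 knockout and lower by -3.91 in the Nr4a1 knockout, and each knockout stood outside the range of the other 3 arrays by at least a 2-fold size. Rgs10, which acts on Gi signalling, showed the reverse order, at 7.98, 5.86, 9.60 and 12.78. Its differences were -2.12 and 3.18, or -3.74 and 4.80 against the other wild types. Rgs19 was at 4.57, 4.15, 5.25 and 8.15, higher by 2.90 in the Nr4a1 knockout and at -1.10 in the circZbtb20 knockout against the other wild type, and Rgs14 lay between 5.94 and 6.45 on all arrays. Of all 23 Rgs genes 3 were higher and 5 lower in the Nr4a1 knockout, beside 18.3% and 11.9% of all genes. In either direction that is 34.8%, near the background of 30.3%. Against the other wild type the counts were 3 higher and 8 lower, where 3668 of all 19504 genes were higher and 2287 lower. In either direction these were 47.8% of the Rgs genes and 30.5% of all genes. The circZbtb20 comparison gave 1 higher call and 4 lower calls, beside 15.6% and 11.1%. Of those 4, Rgs7 at -1.15, Rgs7bp at -1.02 and Rgs8 at -1.59 had values of 5.49 or less on all arrays, and none was called against the other wild type, at -0.18, 0.10 and -0.39.

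Sprouty genes were lower in the Nr4a1 knockout at 3 of 4 members, a small family, beside 11.9% of all genes. None was called in the circZbtb20 knockout against its own wild type, where 26.6% of all genes were called in either direction. Against the other wild type Spry1 was called lower in the circZbtb20 knockout, at -1.78, and after quantile normalization Spry2 was lower there by -1.01. Spry2 was at 12.14, 11.66, 12.27 and 3.53. Within the first 3 arrays it varied by 0.61, and in the Nr4a1 knockout it lay under the array median, lower by -8.74, a difference that ranked 66 from the lowest of all genes. Spry1, a feedback inhibitor of Ras signalling in T cells, was at 5.92, 5.78, 7.56 and 4.90. Its Nr4a1 difference of -2.66 was -1.02 against the other wild type. Spry4 was at 5.64, 4.92, 5.57 and 4.24, lower by -1.33, and Spry3 lay between 3.27 and 3.59.

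None of the 3 SPRED genes was called lower in the Nr4a1 knockout, beside 11.9% of all genes. Spred1, which recruits neurofibromin to Ras, was at 7.73, 5.74, 7.83 and 7.99. It was lower by -1.99 in the circZbtb20 knockout and within 0.26 on the other arrays. Spred2 was at 9.33, 9.89, 9.21 and 11.01, higher by 1.80 in the Nr4a1 knockout, and Spred3 lay between 3.64 and 4.42.

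**Figure D5:**
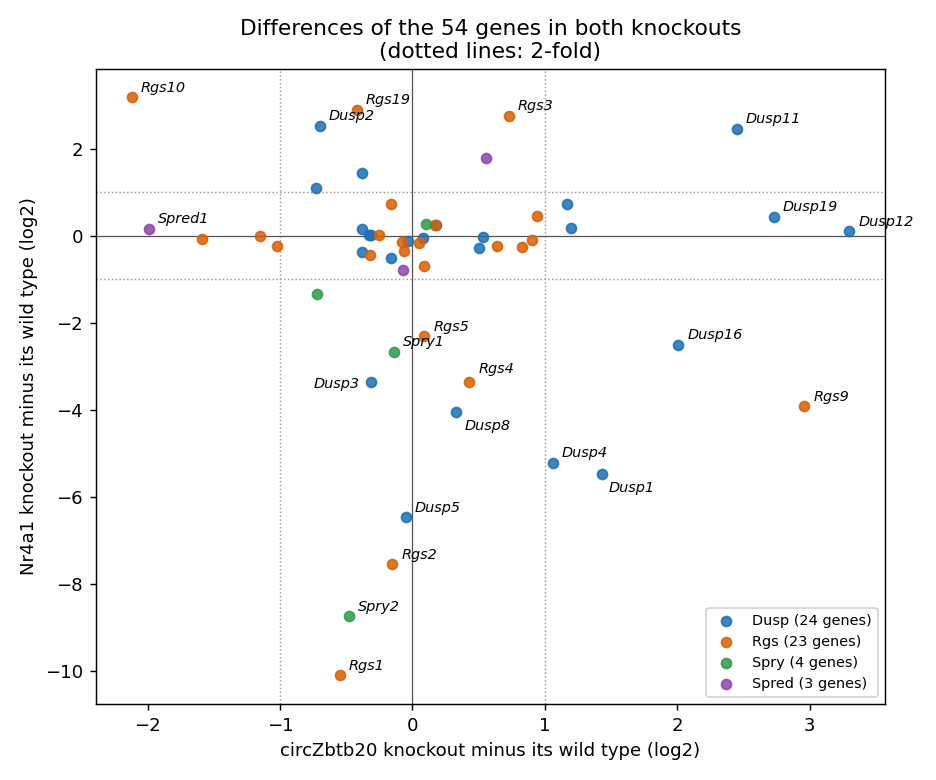
Log2 difference of each of the 54 members in the circZbtb20 knockout (horizontal axis) and in the Nr4a1 knockout (vertical axis), each against its own wild type, coloured by family, with dotted lines at a 2-fold size. Rgs1, Spry2, Rgs2 and Dusp5 lie far below 0 on the vertical axis and near 0 on the horizontal axis. Dusp11 lies above the 2-fold lines on both.

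The knockouts were set against separate wild types, and their calls were compared gene by gene. Dusp11 was higher in both, the single member called in the same direction, where 8.51% of all genes were called so. It made up 11.1% of the 9 members higher in the circZbtb20 knockout and 12.5% of the 8 higher in the Nr4a1 knockout. Over all genes the shared higher calls made up 33.7% and 28.7% of the lists. The lower calls, 5 and 14 members, shared none, where the shares over all genes were 29.4% and 27.3%. These overlaps depend on the reference array. With each knockout set against the other wild type, 4 members were called in the same direction in both, Dusp11 higher and Dusp3, Rgs2 and Spry1 lower. After quantile normalization the count was 2, Dusp11 higher and Spry2 lower. No share over all genes is given for these alternative settings. Another 5 of the 54 members, Dusp1, Dusp4, Dusp16, Rgs9 and Rgs10, were called in opposite directions, beside 1148 of all 19504 genes. Of these members Dusp1 and Dusp4 rest on the circZbtb20 wild type, as described above.

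A stricter description asked for a 2-fold distance from each of the other 3 arrays, both wild types included. In the Nr4a1 knockout 12 members lay below the rest, beside 6.39% of all genes. These were Dusp1, Dusp3, Dusp4, Dusp5, Dusp8, Dusp16, Rgs1, Rgs2, Rgs4, Rgs5, Rgs9 and Spry2. Another 6 lay above the rest, beside 11.3%, namely Dusp2, Dusp7, Rgs3, Rgs10, Rgs19 and Spred2. In the circZbtb20 knockout 2 lay below, Rgs10 and Spred1, beside 5.20%, and 4 lay above, Dusp12, Dusp16, Dusp19 and Rgs9, beside 8.11%.

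A test was possible when both wild types were taken as 1 group in a limma fit over all genes. This fit takes error from the difference between those arrays, with 1 residual degree of freedom, moderated by the errors of all genes. In the Nr4a1 knockout it called 12 of the 54 members after Benjamini-Hochberg adjustment over all genes, beside 11.2% of all genes. Lower were Rgs1, with an adjusted p of 0.0117, Spry2 at 0.0141, Dusp5 at 0.0190, Dusp1 at 0.0211, Rgs2 at 0.0264, Rgs4 at 0.0282, Rgs9 at 0.0326, Dusp8 at 0.0427 and Dusp4 at 0.0470. Higher were Dusp11 at 0.0321, Rgs19 at 0.0363 and Dusp2 at 0.0390. The other 42 members did not pass, Dusp16 at 0.0840 and Rgs10 at 0.0702 among them. For the circZbtb20 knockout limma called 0 members and 0.0% of all genes. The smallest adjusted p of a member there was 0.0538, for Dusp19. With 1 array per knockout these values describe the knockout arrays against the spread of 2 wild-type arrays, moderated over all genes. They do not describe the spread between mice of a genotype.

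The other 29 members did not reach the 75th percentile of their array in their highest value, and their values lay between 2.51 and 6.45, with a median of 3.70. Of all 54 members 15 were under the array median on all 4 arrays and 19 were at or above it on all 4. The 15 were Dusp9, Dusp15, Dusp18, Dusp21, Dusp23, Dusp27, Dusp28, Rgs9bp, Rgs11, Rgs17, Rgs20, Rgs21, Rgs22, Spred3 and Spry3, with values from 2.51 to 4.42. Among the atypical DUSPs Dusp13 lay between 3.76 and 4.48, Dusp14 between 4.07 and 5.05 and Dusp26 between 4.67 and 5.20. Rgs6, an R7 relative of Rgs9, was at 4.37, 5.27, 4.54 and 4.45, and Rgs12, an R12 relative of Rgs10, was at 3.67, 4.50, 4.59 and 4.34. Neither was called in a knockout, where Rgs9 and Rgs10 were called in both. The table holds no detection calls, so how far such values stand above background is not known. Beside Rgs7, Rgs7bp, Rgs8, Dusp7 and Spry4, the rule called among these 29 Dusp22, higher by 1.11 in the Nr4a1 knockout but at 0.05 against the other wild type.

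Genes of the pathways that these proteins restrain were called in both directions in each knockout. The share of all genes to read these counts against is 18.3% higher and 11.9% lower in the Nr4a1 comparison, and 15.6% and 11.1% in the circZbtb20 comparison. Called genes in either direction made up 68.4% of the Ras and RAF list in the Nr4a1 comparison, 41.2% of the MAP kinase list, 31.2% of the alpha subunits and 18.8% of the beta and gamma subunits, beside 30.3%. For the circZbtb20 comparison the shares were 36.8%, 29.4%, 37.5% and 31.2%, beside 26.6%. On all 4 arrays 17 of 19, 11 of 17, 9 of 16 and 8 of 16 genes of these lists were at or above the array median. Over all genes 7722 of 19504 were, and the part of expression level in these shares was not tested. Of 19 measured Ras and RAF genes 7 were higher and 6 lower in the Nr4a1 knockout. Rasal3, a Ras inhibitor of blood cells, was higher by 6.18, and the Ras inhibitor Rasa1 by 3.09. The circZbtb20 comparison called 3 higher and 4 lower, with the Ras activator Sos2 at -4.32 and the GTPase Rras2 at -2.75. Of 17 MAP kinases and their activating kinases 5 were higher and 2 lower in the Nr4a1 knockout, where the p38 kinase Mapk11 was higher by 5.16 and its activator Map2k6 by 3.08. The circZbtb20 calls were 4 higher and 1 lower, with the JNK kinase Mapk8 higher by 3.26 and the p38 kinase Mapk14 by 3.10. Of 16 G protein alpha subunits, the targets of RGS proteins, 1 was higher and 4 lower in the Nr4a1 knockout. Gna13 differed there by -4.10, Gna15 by -2.92 and Gnaq by -2.37. For the circZbtb20 comparison these counts were 2 and 4, with Gnai1 at -2.46. Of 16 beta and gamma subunits the Nr4a1 comparison called 2 higher and 1 lower. The circZbtb20 comparison called 2 higher and 3 lower, and there Gng5 differed by -3.52, Gng12 by 3.50, Gng2 by -2.50 and Gng3 by -1.86. Against the other wild type Gng3 was at -0.11 and not called, with -1.75 between the wild types, while Gnai1 was at -1.51 and Rras2 at -4.29.

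Of the ERK-related transcription factors and early genes 17 of 20 were called in the Nr4a1 comparison, and of the other feedback inhibitors 19 of 21. The background was 30.3% of all genes, and on both lists more were lower than higher. On all 4 arrays 18 of the 20 and 13 of the 21 genes were at or above the array median, beside 7722 of all 19504 genes. The rule asks for a larger value at or above that median, and the part of expression level in these shares was not tested. Among the 20 ERK-related transcription factors and early genes the calls were 11 lower against 6 higher, and the median difference was -1.62. The AP-1 genes Fosb, Fosl2, Jun and Junb were lower by -11.18, -8.80, -8.72 and -8.21. Egr2, also an early gene, was at 8.42 in the Nr4a1 wild type and 13.61 in its knockout and so differed the other way, by 5.19. Among 21 other feedback inhibitors the calls were 13 lower against 6 higher, with -1.93 as the median. Socs2 and Cish, which restrain cytokine receptors, were lower by -9.06 and -6.83, and Tnfaip3 and Nfkbia, which restrain NF-kB, by -7.34 and -5.97. Of the 6 higher inhibitors Ptpn6 and Ptpn7 had the greatest differences, 5.80 and 5.73. The circZbtb20 comparison gave 9 lower and 5 higher calls on the list of early genes, median -0.18, and 5 lower and 4 higher calls on the list of inhibitors, median -0.03, or 70.0% and 42.9% of the lists beside 26.6%. Against the other wild type these medians were -1.39 and -0.48. The wild types differed on both lists too, by medians of 0.58 and 0.51, higher in the Nr4a1 wild type.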

How the data were processed

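The deposited table holds 1 column of log2 expression values for each of the 4 arrays. Per the submitters' processing notes, the authors used Affymetrix Power Tools and RMA, which corrects background, normalizes by quantiles and summarises probes; no source used here names their versions or settings, and the distributions of the 4 arrays are close but not identical. Such normalization hides changes in total RNA per cell, so differences are relative to the other genes of an array. Of 22205 rows, 19571 carried 1 gene symbol in the probe table of the platform recorded for the series and 2634 none, and gene names rest on that table, although the series text names the protocol of another array, Mouse Gene 2.0; for the 55 genes with several rows, the brightest was used, which left 19504 genes. Each knockout was compared with the wild type its title pairs with it. With 1 array per genotype the comparisons have no test: genes were called where the log2 difference reached 1 in size and the larger value lay at or above its array's median, and the same count over all genes is given as background. limma 3.58.1 in R 4.3.3, with both wild types as 1 group, served as an alternative. Members with a highest value at or above the 75th percentile of its array were described singly. Of each pathway list up to 4 genes with the greatest called difference were named. Egr2, Ptpn6, Ptpn7 and the members called among the low genes were named after their values were seen. The members and gene lists were chosen with earlier results of these data known. Alternatives were the other or the mean wild type as reference, quantile normalization, centring, other filters, a 4-fold size and the next brightest row.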

Additional observations from a re-analysis of the deposited data

How the results depend on the processing

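Counts of called members kept within 1.5 times of those reported except as follows. With the other wild type as reference, members called in the same direction in both knockouts were 4 in place of 1. With the mean of both wild types, the circZbtb20 comparison called 9 members in place of 14, with 2 lower in place of 5. Quantile normalization gave 2 members with the same direction in both knockouts and 8 lower between the wild types in place of 5. With the filter at the 75th percentile, 2 members were lower in the circZbtb20 comparison and 2 between the wild types. Over all 19504 genes these lower calls were 1333 and 462 with this filter. They were 2110 with the mean reference, and 921 between the wild types after quantile normalization. At a log2 difference of 2, the circZbtb20 comparison called 6 members, 5 higher and 1 lower, and the Nr4a1 comparison 5 higher. The wild types had 0, with 0 in each direction. At that size 10.4% of all genes were called in the circZbtb20 comparison and 1.05% between the wild types. In the Nr4a1 comparison 1646 of 19504 genes were higher. limma, with both wild types as 1 group, called 12 members in the Nr4a1 comparison, 3 higher and 9 lower. In the circZbtb20 comparison it called 0, with 0 higher and 0 lower, and 0 were shared. Fewer genes pass a larger size or a stricter filter by construction, and the cause of the other shifts was not tested. Of the called differences of the 25 members described singly, that of Dusp4 in the circZbtb20 knockout turned in sign, at -0.35 against the other wild type. Differences under the 2-fold size also turned against the other wild type, for Dusp8 to -0.63, Rgs3 to -0.36 and Rgs16 to 1.13 in the circZbtb20 comparison, and for Dusp12 to -0.79 and Rgs16 to -1.37 in the Nr4a1 comparison. After quantile normalization Rgs5 turned to -0.26 in the former, and Dusp6 to -0.20, Rgs16 to -0.17 and Spred1 to -0.31 in the latter. After centring, Dusp5 turned to 0.05 in the circZbtb20 comparison. The mean of both wild types turned Dusp8 to -0.15 and Rgs16 to 0.44 there, and Dusp12 to -0.34 and Rgs16 to -0.68 in the Nr4a1 comparison. No member had several rows, so the next brightest row changed no member. Low values near the array medians limit the precision of small differences. No paired analysis was possible because each genotype has 1 array and the labels give no replicate numbers.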
